A study of Mus musculus with 6 samples.

Results

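The E2F transcription factors and their DP partners were followed in mouse neural stem cells (NSCs) with and without Cre recombinase. The group was defined by gene symbol, with earlier results of these data known. It holds 10 genes, *E2f1* to *E2f8*, *Tfdp1* and *Tfdp2*, of the 53379 rows of the expression table. Each of the 10 genes was found once, and each passed the filter of a mean normalized count of at least 10, which left 14840 genes to be tested.

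E2F proteins bind DNA near the start of genes needed for DNA synthesis and cell division. Most of them bind as a pair with a DP protein. The activators (*E2f1*, *E2f2* and *E2f3*) drive their targets when cyclin-dependent kinases release them from the retinoblastoma family of pocket proteins, the repressors (*E2f4*, *E2f5* and *E2f6*) hold targets down with pocket proteins or, for E2F6, with a Polycomb complex, and the atypical members (*E2f7* and *E2f8*) repress without a DP partner. In neural progenitors the family is known for its part in the choice between further division and cell cycle exit.

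The NSCs came from the cortex of *Tbl1xr1* flox/flox embryos at E14.5. The study routinely kept its NSCs as neurospheres with EGF and basic FGF, and also used adherent cultures. It does not state which of these gave the sequenced RNA. All 6 libraries carry the floxed allele, in which loxP sites surround exon V of *Tbl1xr1*, a subunit of the NCOR and SMRT corepressor complexes. A lentivirus delivered GFP alone to the cells of the 3 control libraries (replicates 1, 1_1 and 2), and Cre-GFP to those of the other 3 (replicates 2, 2_2 and 3), where Cre is to remove that exon. GFP+ cells were sorted in both groups. The comparison asks what loss of *Tbl1xr1* does to gene expression in cultured NSCs.

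The deposited values are normalized counts, that is reads per gene scaled by a size factor for each library, and the reads recovered from them ranged from 7510615 to 14828100 per library. *Tbl1xr1* itself was not lower after Cre, with a normalized count of 2477 ± 268 (SD, n = 3) in control and 3381 ± 440 with Cre (limma adjusted p = 0.060), and the counts of the whole gene do not check the loss of 1 exon. The study states that the sorted cells were checked for their genotype and for the absence of *Tbl1xr1* mRNA and protein. The second group is therefore called the libraries labelled Cre. It is not stated whether libraries 1 and 1_1, or 2 and 2_2, came from separate cultures, so p-values measure the spread between these libraries, which may be technical. In bulk RNA, fewer cells of a type and less RNA per cell cannot be told apart.

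Sequences upstream of the family's own genes show where E2F letters stand, since several E2F genes are known to be E2F targets themselves. RefSeq windows of 300 bases (GRCm38.p6, 250 before and 50 after each annotated start) were at hand for 8 of the 10 genes. They were searched on both strands for the E2F letters TTTCCCGC, TTTCGCGC, TTTGCCGC and TTTGGCGC, and for the cell cycle homology letters TTTGAA. At least 1 window of *E2f2*, *E2f3*, *E2f7* and *Tfdp1* held E2F letters, 4 of 8 genes, against 4.86% of the 9678 tested genes with a window and 704 of all 27025 genes with one. TTTGAA stood in windows of *E2f2*, *E2f3* and *E2f8*, 3 of 8 genes, against 13.8% of the tested genes with a window and 20.2% of all genes. The windows of *E2f1*, *E2f6*, *E2f8* and *Tfdp2* held none of the 4 E2F strings, which says only that these letters are absent from these windows. Below are the last 60 bases before the start of *E2f1*, the stretches of the members with a match, and for comparison those of the replication genes *Cdc6* and *Mcm5*, with E2F letters of either strand in capitals. The *E2f2* match lies 39 bases after the annotated start, and the other matches lie before it. In *Mcm5* the capitals are 2 overlapping matches on opposite strands.
E2f1, chr2:154569427-154569486, minus strand: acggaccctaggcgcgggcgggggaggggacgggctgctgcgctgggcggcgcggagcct
E2f2, chr4:136172303-136172323, plus strand: cggcatatagTTTGGCGCtaa
E2f3, chr13:29986064-29986123, minus strand: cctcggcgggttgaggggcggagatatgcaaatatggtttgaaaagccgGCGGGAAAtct
E2f7, chr10:110745219-110745278, plus strand: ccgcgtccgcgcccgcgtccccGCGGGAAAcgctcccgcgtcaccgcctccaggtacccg
Tfdp1, chr8:13338681-13338740, plus strand: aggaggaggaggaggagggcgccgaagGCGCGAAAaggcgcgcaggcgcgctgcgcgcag
Cdc6, chr11:98907986-98908045, plus strand: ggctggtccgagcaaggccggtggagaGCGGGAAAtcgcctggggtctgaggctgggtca
Mcm5, chr8:75109329-75109388, plus strand: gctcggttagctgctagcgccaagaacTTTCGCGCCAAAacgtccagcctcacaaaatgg

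Among the 10 genes, *E2f1* alone passed the test, and its mean fell by 57.0% in the libraries labelled Cre. The share of genes called lower among all genes tested was 5.22%, and the share called in either direction was 9.96%, so 1 call among 10 genes is near the background. All 3 activators, both atypical members and both DP partners had a negative log2 fold change, and the 3 repressors a positive one. The median over the 10 genes was -0.28, against -0.001 over all genes tested.

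*E2f1*, the activator best known for driving entry into S phase, had normalized counts of 477, 396 and 540 in control 1, 1_1 and 2. In the libraries labelled Cre 2, 2_2 and 3 the counts were 222, 170 and 216. Every library labelled Cre lay far below the lowest control library. The mean went from 471 ± 72.0 to 203 ± 28.0 (SD, n = 3), a log2 fold change of -1.21 (SE 0.17, 95% interval -1.58 to -0.84) with an adjusted p of 0.0014 in limma. It ranked 152nd by p, and 223 genes (1.50% of those tested) had a log2 fold change as low or lower. *E2f1* was also called by edgeR on the recovered reads (adjusted p = 0.0014), which called 9.99% of genes, and by DESeq2 (adjusted p = 4.9e-08), which called 11.8%. Over 17 alternatives its adjusted p was at most 0.0151, in the fit without control 2.

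**Figure D1:**
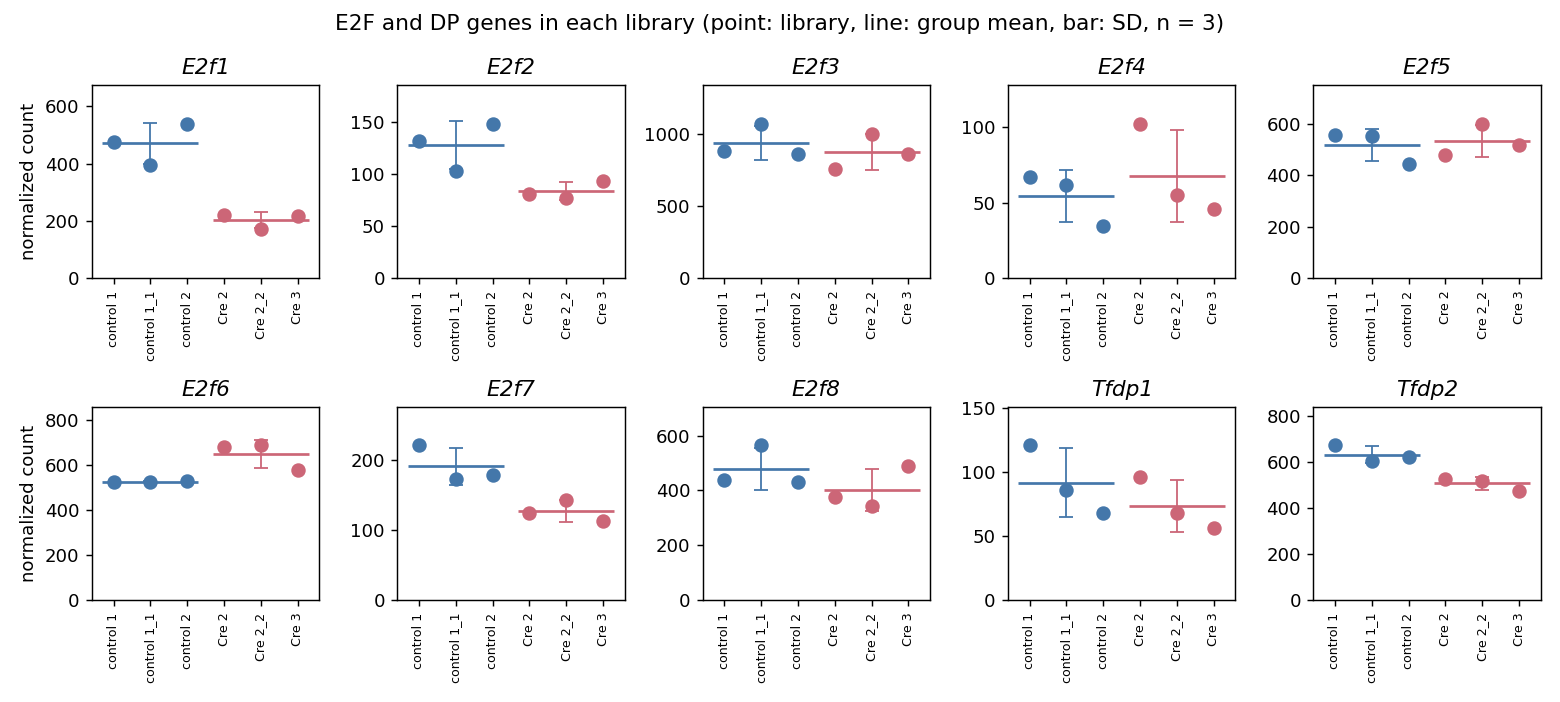
Normalized counts (y axes, from 0, scaled for each gene) of the 10 genes in the 3 control libraries (blue) and the 3 libraries labelled Cre (red), with each group's mean as a line and SD as a bar. The *E2f1* counts of 170 to 222 with Cre lie below the control range of 396 to 540, while those of *E2f3*, *E2f4*, *E2f5*, *E2f8* and *Tfdp1* overlap.

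The other activators were closer to control. *E2f2*, the least abundant activator, had counts of 131, 102 and 148 in control and 81.0, 76.6 and 93.1 in the libraries labelled Cre. The groups did not overlap, but the log2 fold change of -0.59 (95% interval -1.04 to -0.14) missed the threshold after adjustment (unadjusted p = 0.0153, adjusted p = 0.0981, limma). *E2f3*, the most abundant activator and one with a known role in neural progenitors, gave 884, 1074 and 860 in control and 756, 1004 and 861 with Cre. Its groups overlapped, and its log2 fold change was -0.11 with a 95% interval of -0.42 to 0.21, which does not reach the interval of *E2f1*.

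The repressors had higher means with Cre, but none passed the test. The signs of *E2f4* and *E2f5* did not hold in every alternative. *E2f6*, which represses without pocket proteins, was nearly constant in control at 523, 525 and 525, and stood at 679, 686 and 578 in the libraries labelled Cre. The groups did not overlap. Its log2 fold change of 0.30 (95% interval 0.02 to 0.57) was not past the threshold after adjustment (unadjusted p = 0.0352, adjusted p = 0.159, limma). *E2f5*, a partner of the pocket protein p130, gave 556, 551 and 445 in control and 479, 602 and 517 with Cre, with overlap between the groups. Its log2 fold change of 0.04 (95% interval -0.28 to 0.36) was negative without control 2 (-0.06) and without Cre 2_2 (-0.05).

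*E2f4*, in many cell types the main repressor bound by pocket proteins, was among the lowest of the family here. Its counts were 67.0, 61.4 and 34.7 in control and 102, 55.1 and 45.7 with Cre, resting on 26 to 148 reads per library. The groups overlapped, and 1 library, Cre 2, stood above the other 5. The log2 fold change of 0.28 had a 95% interval of -0.48 to 1.04, so neither a rise nor a fall by a moderate amount was detectable at this depth. It became -0.06 without Cre 2 and -0.01 without control 2.

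The atypical members, whose products are known to switch E2F targets off again late in the cycle, both had lower means with Cre. *E2f7* was at 220, 173 and 177 in control and at 123, 143 and 112 in the libraries labelled Cre. The groups did not overlap, and it came closest to the threshold after *E2f1*, with a log2 fold change of -0.59 (95% interval -0.98 to -0.19, unadjusted p = 0.0073, adjusted p = 0.0622, limma). *E2f8* was at 439, 565 and 429 in control and at 376, 343 and 488 with Cre. Its groups overlapped (log2 fold change -0.25, 95% interval -0.62 to 0.12).

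Of the DP partners, *Tfdp2* was the more abundant and the steadier. Its counts were 671, 601 and 620 in control and 525, 517 and 474 with Cre, without overlap. The log2 fold change of -0.32 (95% interval -0.59 to -0.05) missed the threshold (unadjusted p = 0.0239, adjusted p = 0.127, limma). *Tfdp1*, encoding the main DP protein of most cells, gave 121, 86.3 and 68.0 in control and 96.3, 68.0 and 56.4 with Cre, with overlap. In the mm9 genome a near copy of the *Tfdp1* transcript on chromosome 9 was 96.8% identical over 2405 bases, 98.0% of the transcript, and another on chromosome 1 was 91.2% identical over 2040 bases. A copy of 46.7% of the *E2f6* transcript on chromosome 6, within *Grm8*, was 96.2% identical. How reads shared with such copies were counted is not given in the sources used here, so the levels of *Tfdp1* and *E2f6* are uncertain. No off-locus match of 300 bases or more was found for the other 8 genes.

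Counting all 10 genes, the groups did not overlap for 5 (*E2f1*, *E2f2*, *E2f6*, *E2f7* and *Tfdp2*), where 30.3% of all genes tested did not overlap. The same 5 genes had an unadjusted p under 0.05 in limma, a cutoff for which no share over all genes was counted. An exact permutation test of 3 against 3 libraries cannot go below p = 0.10, two-sided, and gave that value for each of these 5.

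**Figure D2:**
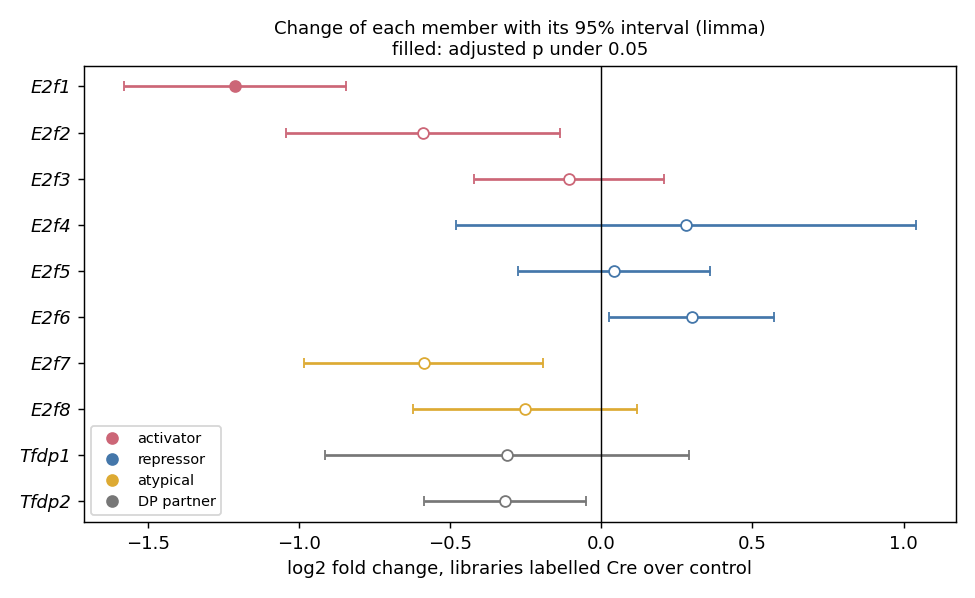
Log2 fold change of the libraries labelled Cre over control (x axis) for each gene (y axis) with its 95% interval from limma, coloured by class and filled where the adjusted p was under 0.05. Only *E2f1*, at -1.21, is filled, and the 3 repressors (blue) are the points to the right of 0.

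Per kb of exon, which allows levels of different genes to be compared, *E2f5* was highest in both groups, at 296 ± 35.8 normalized counts per kb in control and 305 ± 35.9 with Cre. *E2f6* (214 and 264) and *E2f3* (196 and 182) followed, and *E2f7* was lowest (21.1 and 14.0). The place of *E2f1* in this order went from 4th in control, at 149 ± 22.8, to 6th with Cre, at 64.2 ± 8.88. In control the *E2f1* libraries lay above all of those of *E2f8*, the next gene, while with Cre *E2f1* overlapped *Tfdp2*. Neighbours that overlapped in control were *E2f6* with *E2f3*, *E2f8* with *Tfdp2*, *Tfdp1* with *E2f4*, *E2f4* with *E2f2* and *E2f2* with *E2f7*. With Cre they were *E2f5* with *E2f6*, *E2f8* with *Tfdp2*, *Tfdp2* with *E2f1*, *E2f4* with *Tfdp1* and *E2f2* with *E2f7*. Lengths are unions of GENCODE M1 exons, so an order within the family depends on that annotation.

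Summed per kb over each class, the activators made up a smaller share of the E2F mRNAs in the libraries labelled Cre, and the repressors a larger one. The activators made up 35.1%, 35.2% and 39.4% of the summed level of the 8 E2f genes in control 1, 1_1 and 2, and 26.3%, 27.7% and 28.9% in Cre 2, 2_2 and 3. The repressors made up 54.7%, 53.2% and 50.4% in control and 64.8%, 64.5% and 60.0% with Cre. Neither class overlapped between the groups, while the share of the atypical members did (10.7% ± 0.85 and 9.25% ± 1.65). The summed level of the activators was 371 ± 9.26 per kb in control and 264 ± 17.5 with Cre, and that of the repressors 537 ± 44.1 and 603 ± 48.8. The repressor sums overlapped (486 to 565 in control, 554 to 652 with Cre) and no repressor gene passed the test. The shares add up to a fixed total, so a lower activator share alone makes the repressor share higher. The total over the 8 genes was 1017 ± 45.8 and 954 ± 48.1. These sums are a description. The repressor sum, and through the total each share, includes *E2f6*, whose level is uncertain because of its near copy. Most of the activator difference is that of *E2f1*, with 149 per kb in control and 64.2 with Cre.

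**Figure D3:**
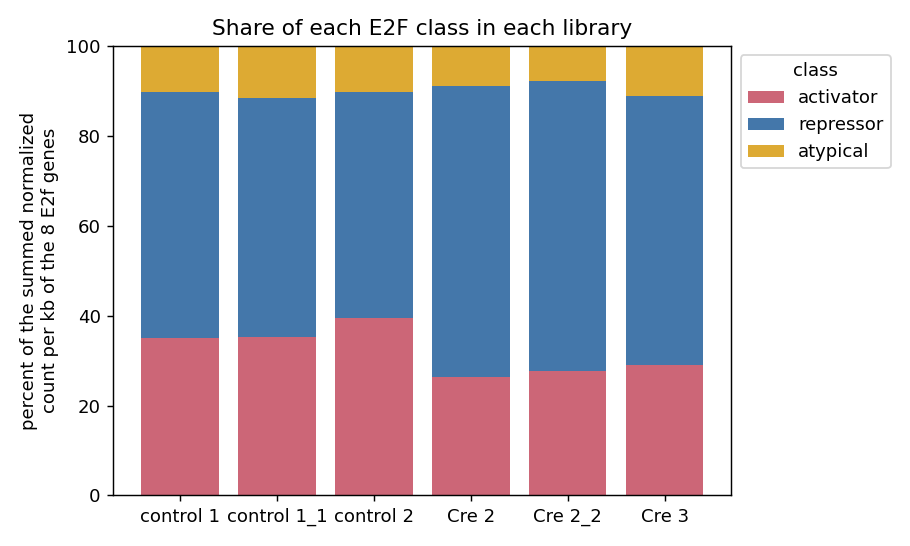
Share of activators, repressors and atypical members (y axis, percent of the summed normalized count per kb of the 8 E2f genes) in each of the 6 libraries (x axis). The activator share is 35.1% to 39.4% in control and 26.3% to 28.9% in the libraries labelled Cre.

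Differences between members within a library do not depend on the size factors apart from the pseudocount, and 10 pairs were compared. *E2f1* shifted against each of the 4 members it was paired with, but these 4 pairs share its values and are not independent of each other. Its log2 level minus that of *E2f3* was -0.89, -1.44 and -0.67 in control 1, 1_1 and 2, and -1.77, -2.55 and -1.99 in Cre 2, 2_2 and 3, a shift of -1.11 without overlap. The shift was -0.62 against *E2f2*, -0.62 against *E2f7* and -1.49 against the scarce *E2f4*, also without overlap. The exact two-sided permutation p was 0.10 for these 4 pairs, the smallest possible with 3 against 3, and 0.25 after adjustment over the 10 pairs. The other 6 pairs overlapped between the groups. Among them, *E2f5* minus *E2f6* shifted by -0.26 and *E2f7* minus *E2f8* by -0.34, and *Tfdp1* minus *Tfdp2* by 0.01.

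**Figure D4:**
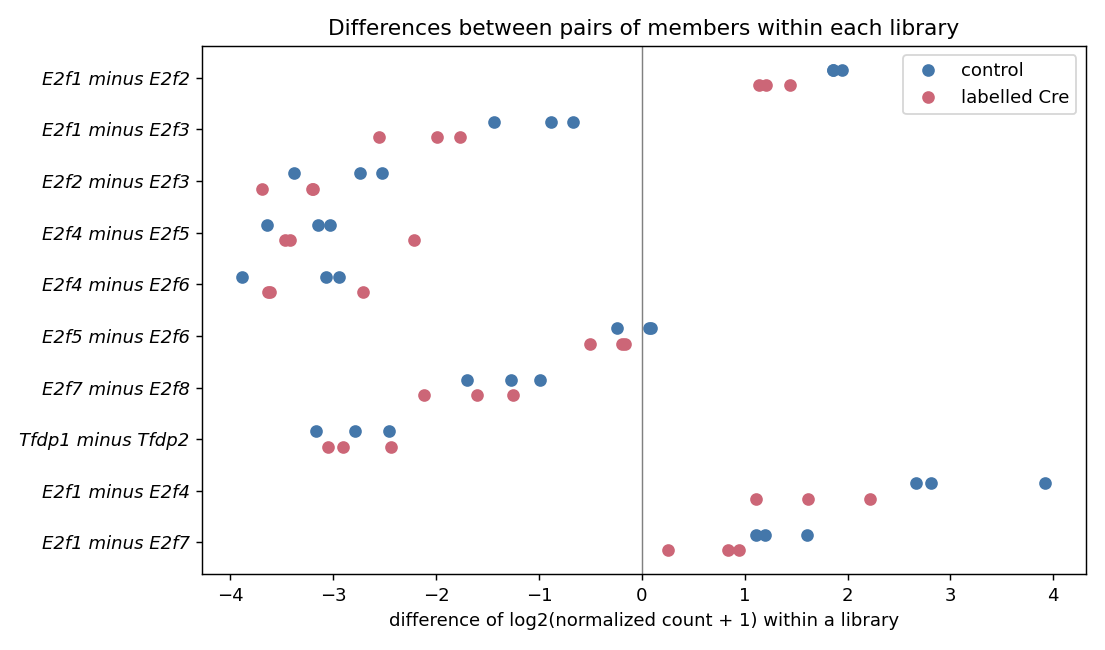
Difference of log2(normalized count + 1) between 2 members within a library (x axis) for 10 pairs (y axis), with control libraries in blue and libraries labelled Cre in red. The colours separate in the 4 pairs that hold *E2f1* and overlap in the other 6.

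Among the genes that control E2F activity, 0 of 3 pocket protein genes, 1 of 7 CDK inhibitors, 2 of 10 G1/S cyclins and kinases, 1 of 8 MuvB genes and partners, 1 of 9 tested E2F6 complex genes and 2 of 7 ubiquitin ligase subunits were called. With 9.96% of all genes called, counts of this size in lists this short are near the background. None of the 3 pocket protein genes passed the test. *Rb1*, the retinoblastoma gene, had a log2 fold change of 0.12 (adjusted p = 0.687), *Rbl1*, which encodes p107 and is itself an E2F target, one of -0.48 (adjusted p = 0.0770), and *Rbl2*, which encodes p130, one of 0.50 (adjusted p = 0.160, all limma). *Rbl1* was at 512, 503 and 372 in control and at 340, 343 and 300 with Cre, without overlap. Of 7 CDK inhibitor genes, *Cdkn1a* (p21) was the only one called, and it was lower, from 3708 ± 402 to 2706 ± 108 (log2 fold change -0.45, adjusted p = 0.0370). The p21 protein restrains the kinases that free E2F proteins from pocket proteins.

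Of 10 G1/S cyclin and kinase genes, 1 fell and 1 rose. *Ccnd1*, the cyclin that couples growth signals to CDK4 and CDK6, fell from 19349 ± 2311 to 12254 ± 2773 (log2 fold change -0.68, adjusted p = 0.0376, limma). *Cdk6*, at 31.2, 39.5 and 41.3 in control and 109, 108 and 80.6 with Cre, rose (log2 fold change 1.39, adjusted p = 0.0050) and was the only gene called higher among all the pathway lists, of 99 tested genes outside the family. The cyclin E genes *Ccne1* and *Ccne2*, known E2F targets that activate CDK2, had log2 fold changes of -0.55 and -0.57 without overlap and just missed the threshold (adjusted p = 0.0589 and 0.0542, limma).

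Of 8 genes of the MuvB complex and its partners, which carry the programme on from G1/S to mitosis, *Mybl2* fell (220 ± 29.7 to 134 ± 23.1, log2 fold change -0.71, adjusted p = 0.0353, limma). *Mybl2* (B-Myb) is a G1/S target of E2F, whereas *Foxm1*, which acts later, had a log2 fold change of -0.07 (adjusted p = 0.806). Of 10 genes of the E2F6 complex 9 were tested, and *L3mbtl2* alone passed (log2 fold change -0.49, adjusted p = 0.0360). Of 7 ubiquitin ligase subunits 2 passed, both lower. They were *Cdc20*, the mitotic activator of the anaphase-promoting complex (1050 ± 118 to 600.4 ± 93.1, log2 fold change -0.81, adjusted p = 0.0067), and *Skp2*, which helps to degrade E2F1 and p27 (log2 fold change -0.52, adjusted p = 0.0430).

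Most genes in the chosen lists of known E2F targets had lower means in the libraries labelled Cre. Of 55 tested genes in 4 target lists, 22 (40.0%) were called lower and 0 higher, against 5.22% and 4.74% of all genes, and 51 had a negative log2 fold change, with a median of -0.45. At an unadjusted p under 0.05 the 4 lists held 37 genes. The share of all genes at that cutoff was not counted, so the 37 cannot be set against a background. The groups did not overlap for 38 of the 55 (69.1%), against 30.3% of all genes. The lists were chosen with earlier results on S phase genes of these libraries known, so the count is not independent evidence. It also moved with single libraries, as did the calls over all genes tested, given here in brackets. The 22 calls (1478) became 6 (558) without control 1, 10 (704) without control 1_1 and 9 (643) without control 2. They became 29 (2396) without Cre 2, 9 (724) without Cre 2_2 and 20 (1437) without Cre 3. With control 1 and 1_1 averaged into 1 sample they became 9 (660).

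Of 26 genes of replication licensing and the replication fork 11 fell and 25 had a negative log2 fold change, with a median of -0.54. *Cdc6*, which loads the MCM helicase on origins, was at 292, 244 and 252 in control and 128, 144 and 111 with Cre (log2 fold change -1.04, SE 0.17, adjusted p = 0.0037, limma). *Pold1*, the catalytic subunit of DNA polymerase delta, was at 585, 585 and 621 in control and 253, 291 and 349 with Cre (log2 fold change -1.01, adjusted p = 0.0019). No library labelled Cre reached the control range for either gene. The MCM helicase genes *Mcm5* (log2 fold change -0.84, adjusted p = 0.0014) and *Mcm3* (-0.80, adjusted p = 0.0018) came next.

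Of 7 genes of nucleotide supply 4 fell, with a median over the list of -0.45. *Dut*, which keeps dUTP out of DNA, went from 919 ± 68.6 to 494 ± 74.2 (log2 fold change -0.90, adjusted p = 0.0028, limma). *Umps*, of pyrimidine synthesis, had a log2 fold change of -0.74, and the ribonucleotide reductase genes *Rrm2* and *Rrm1* had -0.68 and -0.45. Of 15 genes of checkpoint, repair and chromatin 7 fell, with a median of -0.44. The largest changes were those of *Uhrf1*, which brings the maintenance methyltransferase to replicated DNA (-0.74), *Hells*, a chromatin remodeller (-0.73), *Chek1*, the S phase checkpoint kinase (-0.71), and *Dnmt1*, the maintenance methyltransferase (-0.68, 3630 ± 237 to 2262 ± 129).

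The 8 apoptosis genes ascribed to E2F1 showed no such pattern. Of the 7 tested 0 passed in limma, and the median log2 fold change was -0.17, with 4 negative and 3 positive. The groups did not overlap for 0 of the 7, against 30.3% of all genes tested. At an unadjusted limma p under 0.05 there was 1 gene, and the share of all genes at that cutoff was not counted. The 8th, *Trp73*, was at 0 in all 6 libraries. No test compared these genes with the replication targets.

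**Figure D5:**
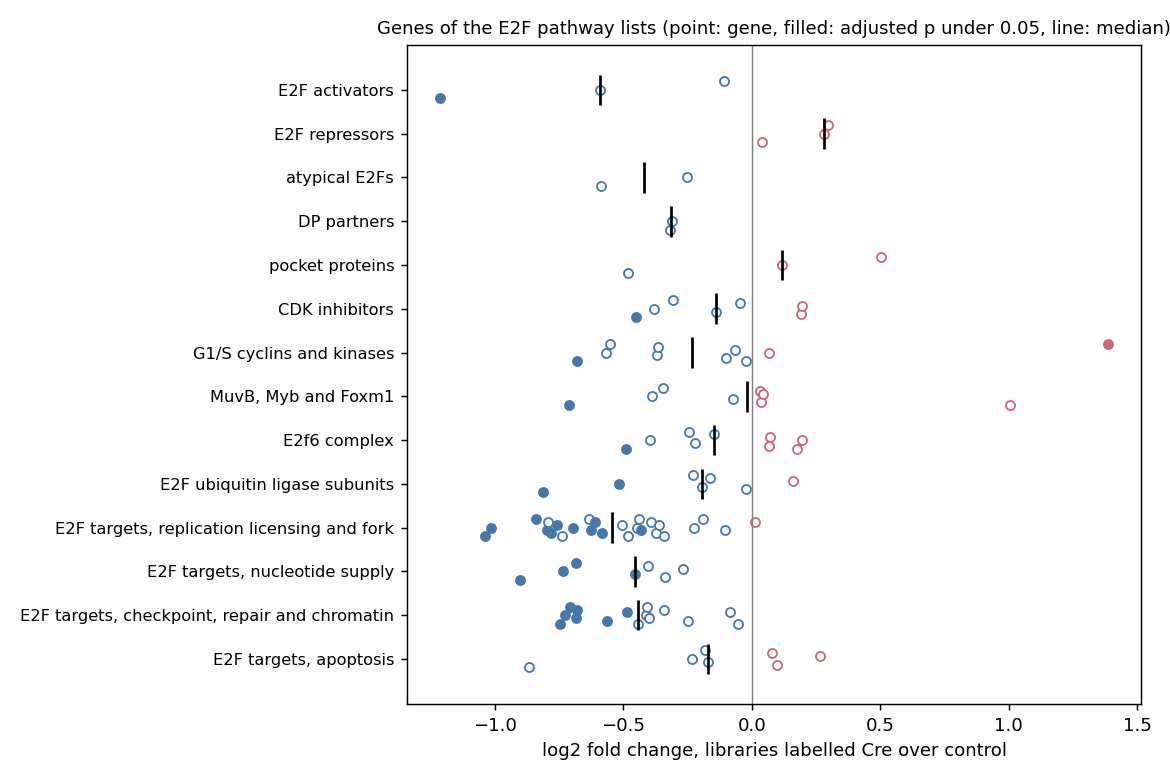
Log2 fold change of the libraries labelled Cre over control (x axis) of each tested gene in the E2F pathway lists (y axis), filled where the limma adjusted p was under 0.05, with the list's median as a black line. In the 3 target lists of replication, nucleotide supply and checkpoint nearly all points lie left of 0, and *Cdk6* at 1.39 is the filled point on the right.

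Upstream E2F letters were also counted in the targets. Of the 48 genes of the 3 target lists other than apoptosis, 39 had a RefSeq window and 19 of them (48.7%) held at least 1 of the 4 E2F strings, against 4.86% of tested genes. The lists were made of known E2F targets, so this share describes them and is no test of binding. *Cdc6* and *Mcm5*, whose stretches are printed above, are among them.

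Markers of other cell types moved beside these results, and their part in them was not tested. Of 9 tested astrocyte markers 5 rose, among them *S100b* and *Sox9*, and 0 fell, against 4.74% and 5.22% of all genes. *Aldh1l1*, named after its values were seen, went the other way without passing (17.3 ± 2.34 in control and 5.35 ± 3.30 with Cre, log2 fold change -1.65, adjusted p = 0.0650, limma). *Gfap*, likewise named after its values were seen, was too low to test (1.82 ± 2.02 in control and 4.73 ± 4.85 with Cre). The summed normalized count of the astrocyte markers was 14487 to 15776 in control and 22671 to 26518 with Cre. Of 7 tested oligodendrocyte lineage markers 3 rose, among them *Olig2* and *Pdgfra* (sums 12899 to 14824 and 17819 to 20124). All 10 NSC markers were tested, and 2 fell, *Sox1* (log2 fold change -2.27) and *Nes* (-0.85), and 0 rose. The list as a whole had 5 negative and 5 positive log2 fold changes with a median of -0.02 (sums 33769 to 37518 and 32309 to 34195), *Sox2* (0.38, adjusted p = 0.259, limma), also named after its values were seen, being among the positive ones. Of 12 neuronal markers 8 were tested, 1 rose and 1 fell (sums 17698 to 18810 and 15293 to 17267), and *Stmn2* and *Neurod6* were at 0 in every library. Only 1 of 8 microglial and 1 of 6 endothelial markers was high enough to test, neither passed in limma, and *C1qa*, *C1qb*, *Tmem119*, *Cdh5* and *Cldn5* were at 0 in every library. The microglial sums were 158 to 204 in control and 164 to 267 with Cre, and the endothelial sums 28.0 to 41.3 and 14.3 to 22.2. Nearly all of the microglial sums came from *Csf1r*, named after its values were seen (183 ± 25.7 in control and 222 ± 53.3 with Cre). *Mki67*, a proliferation marker chosen after its values were seen, had a log2 fold change of -0.17 (adjusted p = 0.379, limma). Its counts were 4370, 4304 and 3717 in control and 3640, 3673 and 3647 with Cre, without overlap.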

How the data were processed

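RNA-seq of 3 control and 3 Cre-infected NSC libraries was analysed. The authors deposited normalized counts per gene, a signal made by scaling the reads of each gene by a size factor for each library, together with their own comparison (mean, log2 fold change, its standard error, statistic, p-value and adjusted p-value), which was not used. Libraries were made with TruSeq RNA v2. The submitters' processing notes name STAR, DESeq2 and mm10, whereas the methods of the study name TopHat, mm9 and mm10. The read counter, strand setting and annotation are not given in the sources used here. Of 53379 rows 873 have no gene name, and 1 with a missing value was dropped. All 6 sample columns were used. The lowest values gave the value of 1 read in each library, and 100% of values came out whole within 0.01 of a read.

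Values were tested with limma 3.58.1 in R 4.3.3 (lmFit, eBayes, trended prior), with a pseudocount of 1 before taking log2 of the normalized counts, for genes with a mean of at least 10, with Benjamini-Hochberg adjustment over all 14840 genes and a threshold of 0.05. A fold change on this scale understates that of low genes. As alternatives, the recovered reads were fitted with edgeR 4.0.16 (quasi-likelihood, TMM) and DESeq2 1.42.0, and limma was rerun with a pseudocount of 0.5 or 5, no filter or a mean of at least 50, TMM or total count scaling, averaged libraries 1 and 1_1 or 2 and 2_2 or both, and leaving out each library. The limma, edgeR and DESeq2 fits were each tried on simulated counts with the same dispersion for all genes, and the permutation tests were not. Members and lists were chosen with earlier results of these data known. All 10 members are named, and in each list at most the 4 called genes with the largest change per direction, with *Rb1*, *Rbl1*, *Rbl2*, *Ccne1*, *Ccne2*, *Ccnd1*, *Cdkn1a*, *Mybl2*, *Foxm1* and *Tbl1xr1* whatever their values. Pairs were compared with exact permutation tests in scipy 1.17.1. Exon lengths and transcripts came from GENCODE M1 (mm9), searched against mm9 with blastn 2.17.0, and promoter windows from RefSeq (GRCm38.p6). Deposited rows carry no coordinates.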

Additional observations from a re-analysis of the deposited data

How the results depend on the processing

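*E2f1* was the only one of the 10 genes past the threshold in the main test, and 1 gene of the 10, *E2f1*, passed under each of the 17 alternatives, with a log2 fold change of -1.33 to -1.09 when 1 library was left out and of -1.27 to -1.18 otherwise. The sign of the log2 fold change held in all 17 alternatives for the other members apart from *E2f4*, which was -0.01 without control 2 and -0.059 without Cre 2 (range -0.059 to 0.52 on leaving out 1 library), and *E2f5*, which was -0.063 without control 2 and -0.05 without Cre 2_2 (range -0.063 to 0.11). Neither was called in any of them. Counts of calls moved more. Genes past the threshold went from 1478 to 660 with control 1 and 1_1 averaged, to 885 with both pairs averaged, and to between 558 and 2396 without 1 library. Pathway list genes past the threshold, 29 in the main test, were 11 and 17 in those averaged fits and 8 to 39 without 1 library. The 28 lower ones were 10 and 16, and 7 to 38. The 22 lower E2F targets were 9 and 14, and 6 to 29. The cause was not tested. *E2f4* rested on 26 to 148 reads per library, *Tfdp1* on 51 to 139 and *E2f2* on 70 to 143. No paired analysis was possible because the groups share fewer than 2 replicate numbers.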

Other observations

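Profiles like those of 4 members were sought over the 6 libraries among 11112 genes averaging 50 or more normalized counts, by the root mean square difference of centred log2(normalized count + 1) values. Nearest to *E2f1* were *Prkaca* (0.119), *Gm16399* (0.119) and *Slc1a5* (0.122). For *E2f2* they were *Cyb5r4* (0.063), *Dguok* (0.073) and *Gm17690* (0.080). For *E2f7* they were *Ing2* (0.040), *Ywhah* (0.041) and *Fam111a* (0.061), and for *E2f8* *Pdzd2* (0.043), *Slx4* (0.049) and *Eif2ak4* (0.056). None of these genes belongs to the E2F target lists. Those lists hold only 55 tested genes, against 11112 genes compared. Their absence among so few nearest genes therefore says nothing about the targets.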
